A study of Rattus norvegicus with 142 samples.

Results

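The hippocampus of infant rats was examined 1 h after an episode of hypoxic seizures, in 10 libraries of 142 in the whole series. The 10 libraries were taken by their labels: all 5 from hippocampi of pups killed 1 h after hypoxia with vehicle injection (HS), and all 5 from hippocampi of pups killed 1 h after the normoxic sham with vehicle injection (noHS). All 10 pups were Long-Evans rats at postnatal day 10 (P10) that had stayed in their own litters. HS pups breathed 5% O2 for 15 min, which induced seizures directly, while noHS pups were kept in normal air, and both groups received intraperitoneal DMSO, the vehicle of a schedule of 4 injections over 48 h that these pups did not live to complete. The wider study also sampled pups at 6, 12, 48 and 168 h, sampled the cortex of the same pups, and gave another set of hypoxic pups (HS+NBQX) the AMPA receptor antagonist NBQX in place of vehicle, beginning soon after hypoxia. The labels give no transgene or mutation for any group.

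AMPA receptors are the glutamate-gated channels that carry most fast excitation in the brain, and in the immature rodent forebrain they are abundant on neurons and on the precursors of myelinating cells. The hippocampus is among the regions most prone to seizures, and intense firing is known to switch on transcription within minutes, first of genes for transcription factors and then of genes for synaptic and growth-related proteins. Hypoxia by itself also changes transcription, and responses to hypoxia and to seizures cannot be told apart in these animals. Whole dissected hippocampi were measured, so that a smaller number of cells of a type and less RNA per cell cannot be told apart.

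Each library was hybridised to 1 well of an Affymetrix rat array plate carrying 24249 probe sets, each a group of short DNA probes that reports 1 intensity for a transcript. The sources used here do not pair probe set identifiers with genes, so results are given for probe sets by identifier, and no pathway or cell type marker could be read. The exceptions are 66 control probe sets whose identifiers name their target. Of 10 libraries, 10 resembled the hippocampal more than the cortical libraries of the other times, over the 500 probe sets that differed most between the tissues there. Correlations with the hippocampal mean profile lay between 0.909 and 0.943, and those with the cortical mean profile between 0.737 and 0.768.

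The libraries were of even brightness. Median intensity was 69.3 to 71.4 in HS and 66.6 to 72.4 in noHS libraries, and the upper quartile was 299 to 308 in HS and 291 to 313 in noHS libraries. The log2 ratio of 3′ to 5′ signal over the controls GAPDH, beta-actin and hexokinase, a measure of RNA integrity, averaged 1.67 ± 0.11 in HS and 1.82 ± 0.10 in noHS libraries (SD, n = 5 each), a difference of -0.15 with p = 0.0556 and 0.194 after adjustment over 7 technical measures (two-sided exact permutation test, smallest possible p = 0.00794). None of the 7 measures passed the threshold, though the rescaling constrained the median and the upper quartile among them. All 5 HS libraries lay in plate column 4, and the noHS libraries in columns 9 and 10, so treatment and plate column cannot be told apart. The pups came from 3 cages, each taken as a litter: HS replicates 1 and 2 shared a litter with noHS replicates 1 and 2, HS replicate 3 shared one with noHS replicates 3, 4 and 5, and HS replicates 4 and 5 came from another that gave only HS pups at 1 h. Observers counted 7, 13 and 7 seizures in HS replicates 1, 2 and 3, and gave no exact count for replicates 4 and 5. Temperatures of HS replicates 1, 2 and 3 were 30.8, 30.9 and 33.2 °C before hypoxia and 29.7, 29.7 and 31.8 °C after it. No temperature was recorded for HS replicates 4 and 5, and no second reading for noHS pups. The part of temperature was not tested.

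Probe sets that rose 1 h after hypoxic seizures outnumbered those that fell. Intensities were compared on the log2 scale with limma, in a fit over all 47 hippocampal HS and noHS libraries with a mean for each treatment and time, and p-values were adjusted over all probe sets by the Benjamini-Hochberg method. At an adjusted p under 0.05, 388 probe sets were called higher in HS (1.6% of 24249) and 101 were called lower (0.417%). The changes were mostly small. The median called rise was 0.56 on the log2 scale, or 1.47-fold, and the median called fall was -0.43, or 1.35-fold lower. Of the rises 180 exceeded 1.5-fold and 36 exceeded 2-fold, against 20 and 10 of the falls. With every array shifted to a common median, the split was 266 higher and 118 lower.

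**Figure D1:**
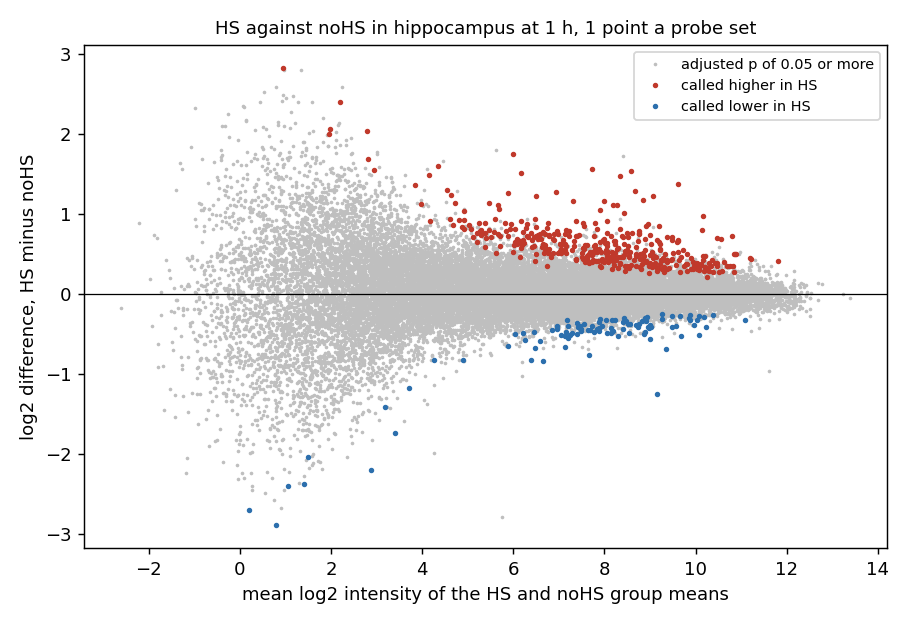
The log2 difference between HS and noHS hippocampi at 1 h (vertical axis) is plotted against the mean log2 intensity of the 2 groups (horizontal axis) for 24249 probe sets. The 388 probe sets called higher and the 101 called lower lie mostly at middle and high intensity, and differences of many uncalled probe sets below a log2 intensity of 6 are as large as the called ones.

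The called probe sets were mostly well expressed. Of those called higher, with all probe sets divided into the brightest, middle and dimmest 8083, 243 lay among the brightest (3.01%), 133 among the middle ones (1.65%) and 12 among the dimmest (0.148%). The calls of lower level followed the same order, with 61, 30 and 10 probe sets. Dim probe sets in general had larger standard errors, so a change of a given size was harder to call there. The typical member of the rising set had an intensity of 322 in HS and 214 in noHS libraries, and that of the falling set 214 in HS and 276 in noHS libraries, whereas the median of all probe sets was 69.9 in HS and 68.1 in noHS libraries. Among the 36 rises over 2-fold, 21 reached a log2 intensity of 6 (an intensity of 64) in a group mean, but only 1 of the 10 falls over 2-fold did so. The largest fitted changes, 7.1-fold up and 7.4-fold down, were of very dim probe sets.

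Rises and falls occurred in every kind of probe set except the controls. Those with the plain suffix AT made 368 of the rises and 93 of the falls, or 1.61% and 0.408% of 22790 such probe sets. Probe sets with the suffix A_AT, which report several transcripts of 1 gene, gave 17 rises and 5 falls (1.75% and 0.514% of 973). Those with the suffix S_AT, which can detect more than 1 gene, gave 2 rises and 2 falls (0.87% each of 230). Those with the suffix X_AT, which may cross-hybridise, gave 1 rise and 1 fall (0.526% each of 190). In these small groups rises did not outnumber falls. None of the 66 control probe sets was called.

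The groups were separated in most called probe sets. All 5 HS libraries lay above all 5 noHS libraries in 299 of the 388 probe sets called higher, while such a separation occurred in 3.03% of all probe sets. All 5 HS libraries lay below all 5 noHS libraries in 71 of the 101 called lower, against 1.62% of all probe sets. These counts describe the calls, since they come from the same libraries as the test. The median SD between replicates of the rising set was 0.14 in HS and 0.21 in noHS libraries on the log2 scale, and for the falling set the median SD was 0.15 in both groups.

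The probe sets described in full are the pair with the largest rises and the pair with the largest falls among calls with a group mean of at least 6 on the log2 scale. Probe set 1384041_AT had intensities of 341, 402, 370, 346 and 368 in HS libraries, against 171, 82.2, 90.2, 153 and 149 in noHS libraries. The groups were far apart, and the brightest noHS library, replicate 1, stayed well below the dimmest HS library. The difference was 1.56 ± 0.16 (log2, SE), or 2.95-fold, with an adjusted p of 1.12e-08 by limma. It remained called in every alternative fit and with any 1 library left out.

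Probe set 1397667_AT was dimmer. Its intensities were 75.3, 123, 129, 146 and 125 in HS libraries, against 67.4, 23.2, 26.5, 29.9 and 41.3 in noHS libraries. No noHS library reached the lowest HS library, but HS replicate 1 and noHS replicate 1, which are littermates, nearly met. The difference was 1.75 ± 0.38 (log2, SE), or 3.36-fold, with an adjusted p of 0.00675 by limma. The noHS mean was only 5.12 on the log2 scale, and with a pseudocount of 32 added before the logarithm the difference was 1.14. Without the litter that gave only HS pups the difference was 1.61, and it was no longer called at an adjusted p of 0.0665 (limma).

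Probe set 1388654_AT gave the largest fall at that level. Its intensities were 268, 235, 247, 621 and 705 in HS libraries, against 601, 1210, 715, 1010 and 1000 in noHS libraries. HS libraries split by litter: replicates 1, 2 and 3 lay far below every noHS library, whereas replicates 4 and 5, from the litter with HS pups only, both lay above noHS replicate 1. The overall difference was -1.25 ± 0.26 (log2, SE), or 2.38-fold lower, with an adjusted p of 0.00353 by limma. Against their own noHS littermates, HS replicates 1 and 2 differed by -1.76 and HS replicate 3 by -1.86, while HS replicates 4 and 5 differed from all 5 noHS libraries by -0.41. The same pups showed the same split in cortex, where HS libraries had intensities of 153, 181, 118, 341 and 433, against 535, 636, 475 and 580 in 4 noHS libraries.

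Probe set 1372348_AT had intensities of 78, 97.2, 74.4, 69.8 and 63.6 in HS libraries, against 97, 167, 157, 145 and 121 in noHS libraries. The groups met at HS replicate 2 and noHS replicate 1, again littermates, and were otherwise apart. The difference was -0.83 ± 0.17 (log2, SE), or 1.78-fold lower, with an adjusted p of 0.00309 by limma. Without the litter that gave only HS pups it was -0.71 with an adjusted p of 0.0611 (limma).

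**Figure D2:**
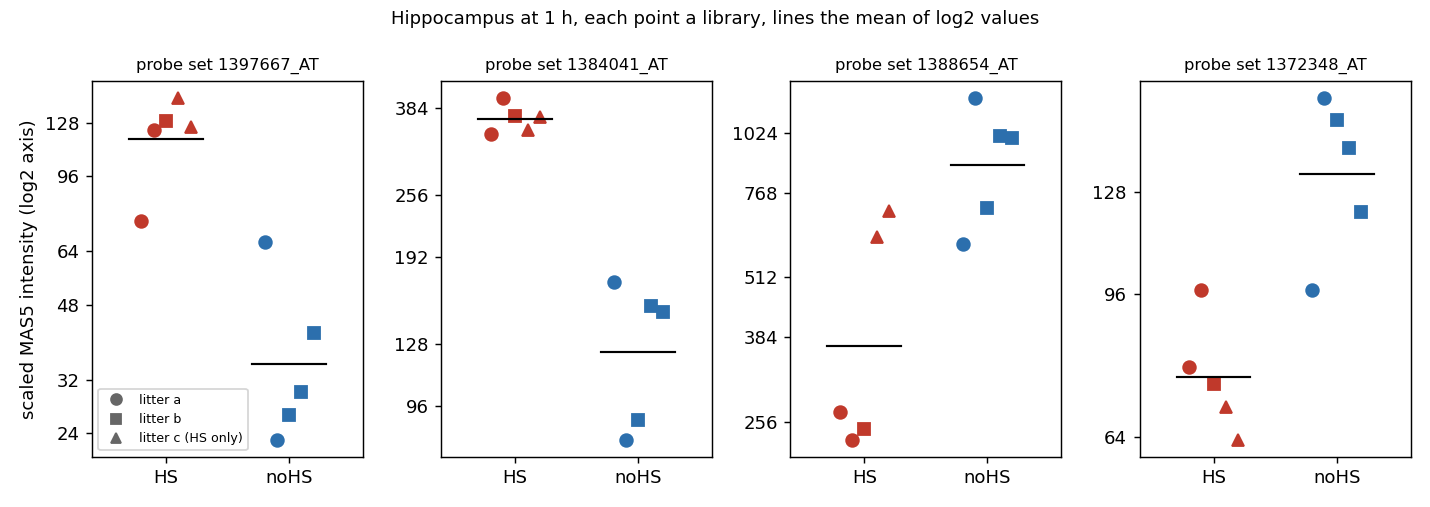
Scaled intensity on a log2 axis in each hippocampal library at 1 h, HS left and noHS right, for the pair of probe sets with the largest called rises and the pair with the largest called falls, among calls with a group mean of at least 6 on the log2 scale. Symbols mark the litter and lines the mean of log2 values. Probe set 1384041_AT separates the groups widely, and 1388654_AT splits the HS libraries into 235 to 268 in both shared litters and 621 to 705 in the litter with HS pups only.

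The mean log2 level of the 388 rising probe sets was 8.11, 8.26, 8.18, 8.17 and 8.14 in HS replicates 1 to 5, against 7.74, 7.42, 7.36, 7.60 and 7.55 in noHS replicates 1 to 5. HS libraries were tightly grouped, and noHS replicate 1 was the nearest to them. The mean level of the 101 falling probe sets was 7.34, 7.21, 7.30, 7.36 and 7.33 in HS replicates, against 7.82, 7.90, 7.96, 7.93 and 7.92 in noHS replicates. Here too noHS replicate 1 stood closest to HS. On the first principal component of 12413 probe sets with a mean over 6, which held 32.9% of the variance, HS libraries lay between 6.21 and 16.7, noHS replicate 1 at 1.82, and the remaining noHS libraries between -20.6 and -7.53. Without noHS replicate 1, 652 probe sets were called.

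Litters gave the same direction for nearly all calls. Between HS replicates 1 and 2 and their noHS littermates, 388 of 388 rising and 101 of 101 falling probe sets kept their direction, with median differences of 0.53 and -0.39. Between HS replicate 3 and its noHS littermates the numbers were 385 and 101, with medians of 0.60 and -0.50. The litter without noHS pups differed from the 5 noHS libraries by medians of 0.55 and -0.43. These are descriptions, since the same libraries chose the probe sets. Without the litter that gave only HS pups 237 probe sets were called, and with plate columns as random blocks 152 were called, each with all 489 in their direction.

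The rising set was higher in HS at all later times too, in pups of other litters. At 6 h, 381 of the 388 probe sets were higher in HS hippocampi, with a median difference of 0.37 (log2), and 90 were called there (background 0.536% of all probe sets called higher). At 12 h, 383 were higher with a median of 0.54, and 237 were called (background 2.92%). At 48 h, 377 were higher with a median of 0.44, and 215 were called (background 2.62%). At 168 h, 379 were higher with a median of 0.42, and 186 were called (background 1.98%). In total 366 of 388 were higher in HS at all of the 4 later times. At 1 or more of them 272 (70.1%) were called higher. Of all probe sets, with rises and falls pooled, 5.62% were called in their 1 h direction at 1 or more of these times. Over all probe sets, 29.2% kept their 1 h direction at all 4 later times.

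The falling set had smaller differences in the later libraries, which entered its choice only through the fit's shared estimate of spread. Its median difference was -0.43 at 1 h, and it was -0.14 at 6 h, -0.17 at 12 h, -0.17 at 48 h and -0.20 at 168 h. At 6 h, 83 of 101 were lower in HS and 1 was called (background 0.0619% of all probe sets called lower). At 12 h, 88 were lower and 10 were called (background 0.342%). At 48 h, 88 were lower and 11 were called (background 1.06%), and at 168 h, 87 were lower and 11 were called (background 0.425%). Probe sets lower at all of the 4 later times numbered 68, and 23 of 101 (22.8%) were called lower at 1 or more of them. The 5.62% above pools rises and falls. Fewer probe sets were called lower than higher at each later time, so it is no background for falls alone.

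The named probe sets showed both courses. For 1384041_AT the differences at 6, 12, 48 and 168 h were 0.96, 1.53, 1.14 and 1.12 (log2), each called by limma, with adjusted p-values of 0.00169, 4.3e-07, 1.2e-05 and 2.4e-05. For 1397667_AT they were 1.09, 1.48, 2.37 and 1.78, with adjusted p-values by limma of 0.276, 0.0402, 7.57e-05 and 0.00429. The later values of the falls were nearer 0: 1388654_AT differed by -0.04, -0.61, -0.27 and -0.39, and 1372348_AT by -0.18, -0.03, -0.18 and -0.33, with no call at any later time.

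**Figure D3:**
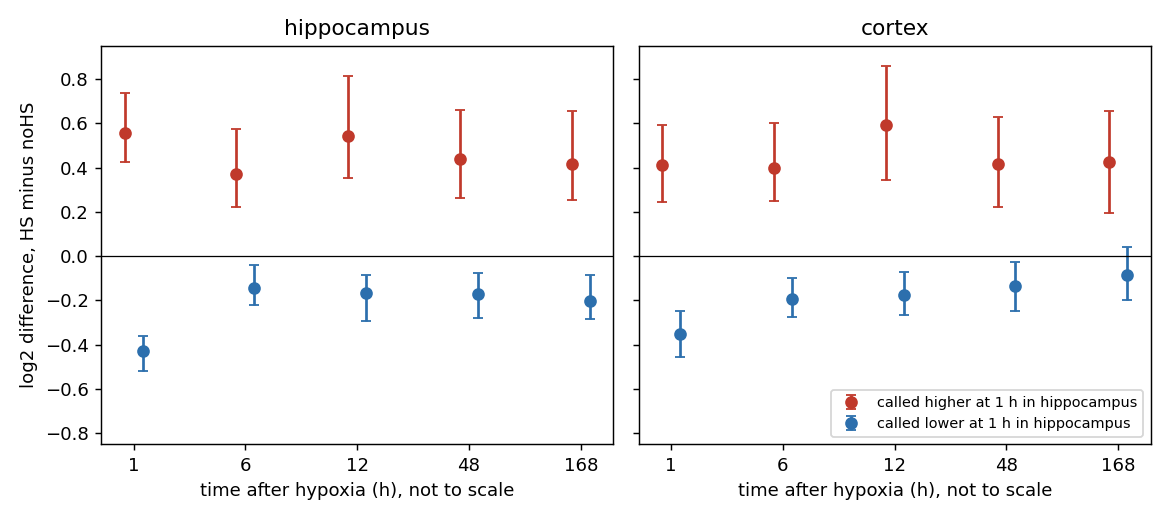
Median log2 difference of HS minus noHS over the 388 probe sets called higher and the 101 called lower in hippocampus at 1 h, with bars from the lower to the upper quartile, at each time in hippocampus (left) and cortex (right). Medians of the rising set stay between 0.37 and 0.59, and those of the falling set lie at -0.43 and -0.35 at 1 h and between -0.20 and -0.09 later.

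A test of the 1 h difference against the mean of the 4 later differences called 0 of 24249 probe sets (0%) by limma. The smallest adjusted p was 0.183, and 1192 probe sets had an unadjusted p under 0.05. Calls at 1 h had to differ at 1 h, so the smaller later medians above are no test of a change with time.

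The cortex of the same pups, on a second plate, gave differences of like direction. Of the 388 rising probe sets 376 were higher in HS cortex at 1 h, with a median of 0.41, and 184 were called higher there (background 2.32%). Of the 101 falling probe sets 95 were lower in HS cortex, with a median of -0.35, and 45 were called lower there (background 4.05%). The whole comparison in cortex called 562 probe sets higher and 982 lower, and after quantile normalization 612 higher and 433 lower, so the direction of its majority depended on the scaling. After quantile normalization 213 of the rising and 29 of the falling probe sets were called in cortex, against 2.52% and 1.79% of all probe sets. In later cortex samples, the median of the falling set was -0.19 at 6 h, -0.18 at 12 h, -0.14 at 48 h and -0.09 at 168 h.

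The difference between tissues was tested itself. The 1 h response in hippocampus minus that in cortex was called in 0 of 24249 probe sets (0%) by limma, with a smallest adjusted p of 0.276 and 1434 probe sets at an unadjusted p under 0.05. The median 95% interval over the 388 rising probe sets, not adjusted for the number of tests, reached 0.38 (log2) to either side. A call needed a still larger difference, so that moderate differences between the tissues were not detectable. For 1384041_AT cortical intensities were 545, 560, 646, 500 and 555 in HS, against 226, 180, 217 and 285 in noHS libraries, a difference of 1.32 ± 0.15 (log2, SE) beside 1.56 in hippocampus. The tissue difference of 0.24 had a 95% interval of -0.21 to 0.69.

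HS+NBQX hippocampi at 1 h are set beside these values. They share the noHS libraries of the comparison above and lay in plate column 1. Their 4 pups came from the litters that HS and noHS shared, and none from the litter with HS pups only. NBQX had by then acted for only part of the hour. For 1384041_AT they had intensities of 532, 459, 421 and 452, all above the 5 HS libraries. For 1388654_AT they had 688, 579, 839 and 853, of which 3 lay within the noHS range. The difference from all 5 HS libraries was not called (0.99, adjusted p = 0.0522, limma). HS intensities of this probe set were 268, 235 and 247 in the shared litters. They were 621 and 705 in the litter with HS pups only, so that litter and treatment are mixed in this difference. In cortex HS+NBQX libraries had 406, 321, 349 and 457 for this probe set, all below the 4 noHS libraries. Against noHS, HS+NBQX libraries had 1220 probe sets called higher (5.03%) and 256 lower (1.06%), and after quantile normalization 942 and 491.

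Against HS itself, HS+NBQX libraries had 62 probe sets called higher (0.256%) and 29 lower (0.12%), which became 36 and 29 after quantile normalization and 0 with plate columns as random blocks. The mean log2 level of the falling set was 7.52 ± 0.04 in HS+NBQX (n = 4), 7.31 ± 0.06 in HS (n = 5) and 7.90 ± 0.05 in noHS hippocampi (SD, n = 5). That of the rising set was 8.30 ± 0.05 in HS+NBQX, 8.17 ± 0.06 in HS and 7.53 ± 0.15 in noHS (SD, same n). The HS and noHS libraries chose these sets, so nothing is read from the place of HS+NBQX beside them. In the other 9 combinations of tissue and time, the mean level of the falling set was lower in HS+NBQX than in HS. The difference there ran from -0.006 (log2) in hippocampus at 6 h to -0.17 in cortex at 12 h. In cortex at 1 h the levels were 7.37 in HS+NBQX and 7.41 in HS. No contrast with the 1 h hippocampus is drawn, since its libraries chose the set.

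**Figure D4:**
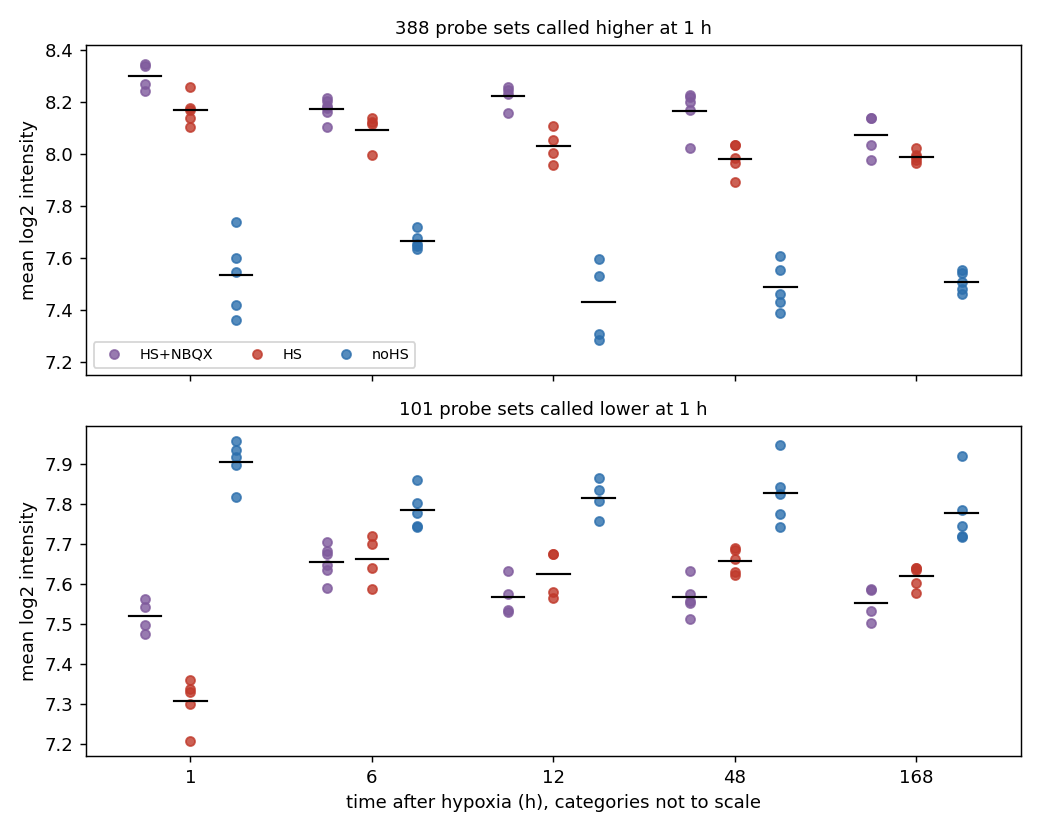
Mean log2 intensity of the 388 rising (top) and 101 falling probe sets (bottom) in each hippocampal library, by time after hypoxia and, within a time, HS+NBQX, HS and noHS from left to right, with lines at the group means. The rising set lies above 7.8 in every HS and HS+NBQX library and below 7.8 in every noHS library, and the falling set is lowest in HS libraries at 1 h.

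The order of the 3 treatments in the rising set recurred throughout the series. Its mean level was highest in HS+NBQX, next in HS and lowest in noHS in all 10 combinations of tissue and time. The step from HS to HS+NBQX was small, from 0.02 (log2) in cortex at 12 h to 0.19 in hippocampus at 12 h. In cortex at 12 h the groups overlapped, with HS libraries at 8.02 to 8.14 and HS+NBQX libraries at 8.05 to 8.13. Every HS library lay above every noHS library in each of the 10. In the 1 h hippocampus, HS above noHS was the rule that chose the set, which leaves 9 other combinations. Libraries outside the 1 h hippocampus did not supply the 1 h differences that chose the set. The later hippocampal HS and noHS libraries did share in the fit's estimate of spread. The cortex libraries at 1 h came from the same pups, and at the later times too most pups gave both tissues. The 10 combinations are thus not independent. On both plates HS+NBQX libraries lay in columns 1 to 3, HS libraries in columns 4 to 6 and noHS libraries in columns 9 to 12, at every time, so the order of treatments is also the order of plate columns, and treatment and plate position cannot be told apart. In noHS hippocampi at 1 h, levels were 7.74 and 7.36 in column 9. In column 10 they were 7.42, 7.60 and 7.55. These adjacent columns hold 1 treatment and do not bear on columns further apart. The part of plate position was not tested.

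None of the 66 control probe sets, whose identifiers name their target, was called (smallest adjusted p = 0.0872, limma). Of these 66, 11 had an unadjusted p under 0.05 by limma, beside 13.4% of all probe sets. The 3′ probe set of GAPDH, a glycolytic enzyme, had intensities of 4250 to 5110 in HS and 4690 to 5780 in noHS libraries, a difference of -0.15 ± 0.10 (log2, SE; adjusted p = 0.511, limma). The 3′ probe set of beta-actin, a component of the cytoskeleton, had 3650 to 5060 in HS and 4120 to 4740 in noHS libraries, a difference of -0.02 ± 0.12 (adjusted p = 0.968, limma). The 5′ probe set of beta-actin had 674 to 928 in HS and 597 to 728 in noHS libraries, a difference of 0.26 ± 0.11 (adjusted p = 0.281, limma). The 3′ probe set of hexokinase, which starts glucose use, had 250 to 331 in HS and 256 to 360 in noHS libraries, a difference of -0.09 ± 0.09 (adjusted p = 0.701, limma). Control RNAs added at hybridisation were slightly higher in HS in 17 of 18 probe sets, with a median difference of 0.14 and no call. Their part in the results, and that of the 3′ to 5′ ratio, was not tested.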

How the data were processed

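Total RNA of whole hippocampi was hybridised to HT Rat Focus arrays. The deposited values are linear intensities that the authors made with MAS5 and rescaled so that the 75th percentile of present-call intensities was common to all arrays. Intensities at or below 0 (6 in these 10 libraries) were set to 0.0526, the smallest positive value, and log2 was taken. Groups came from the labels, cage numbers and plate positions from the labels and the study's design description. limma 3.58.1 in R 4.3.3 was fitted to all 47 hippocampal HS and noHS libraries with a mean-variance trend (95% intervals from the same fit), and calls had a Benjamini-Hochberg adjusted p under 0.05 over 24249 probe sets. Named probe sets were the 2 largest called rises and 2 largest called falls with a group mean log2 of at least 6. Comparisons with cortex, with later times and with HS+NBQX used the same model over the libraries concerned, and technical measures an exact permutation test over 252 splits. Libraries, probe sets and tests were chosen with earlier results of these data known. The 10 libraries came from 10 pups, of which 9 also gave the cortical libraries at 1 h (animal as a random block was an alternative), and no 2 arrays were identical. Simulated data over 24249 probe sets had independent noise, and changes were placed only outside the dimmest 40% of probe sets. There the HS against noHS fit recovered 96 of 100 changes of 1 and 52 of 100 changes of 0.5 (log2). It made 4 false calls over all probe sets. Recovery among dimmer probe sets, or with litter or plate effects, was not simulated. Gene lists, cell type markers and sequences were not used, since no source used here pairs probe sets with genes. Alternatives covered scaling, pseudocount, filter, variance model, blocks, litters and each library left out. The number of arrays limits the precision.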

Additional observations from a re-analysis of the deposited data

How the results depend on the processing

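The 489 calls at 1 h became 445 after quantile normalization and 514 with a pseudocount of 32. They became 592 without the dimmest 40% of probe sets and 581 from the 1 h libraries alone. Counts moved further under other settings: 964 with array weights, 280 with litter as a fixed block and 237 without the litter that gave only HS pups. They were 152 with plate columns as random blocks and 79 by the methods' t-test, which the paper used for pairwise ratios. At a false discovery rate of 0.25 that t-test called 2558 probe sets and limma 1952. The paper selected probe sets at that rate by analysis of variance over all times, not by the t-test. Within the litter of replicates 1 and 2 of both groups 16 probe sets were called, and within that of HS replicate 3 and noHS replicates 3 to 5, 28 were called, where the lone HS library was assumed to vary like the other groups; these fits hold fewer libraries. All 489 kept their direction in every setting with all probe sets tested, except the last litter, with 486. The settings reuse libraries that chose these probe sets, and some leave the difference itself unchanged. A kept direction is therefore a description and no test. Leaving out 1 library gave 213 to 652 calls (213 without noHS replicate 3, 233 without HS replicate 2, 249 without noHS replicate 2, 299 without HS replicate 3). The count for hippocampus minus cortex was 0 to 1 (1 with libraries of 1 h only, otherwise 0), and for 1 h minus later times 0, or 0 to 2 with 1 library left out (1 without noHS replicate 1, 2 without HS replicate 4). Cortex gave 376 calls with plate columns as random blocks and 818 to 1471 with 1 library left out (818 without noHS replicate 4, 837 without noHS replicate 3, of 1544). HS+NBQX against noHS gave 977 with that block and 1004 to 1556 with 1 library left out, of 1476. HS+NBQX against HS gave 0 with that block (1459 at an unadjusted p under 0.05), 150 without dim probe sets and 15 to 82 with 1 library left out, of 91, the lowest without HS+NBQX replicate 2. The difference in 3′ to 5′ ratio ran between -0.20 and -0.11 with 1 library left out, past the threshold without HS replicate 5 or noHS replicate 1 (exact permutation p = 0.0159 and 0.0476).

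Replicate numbers did not pair the libraries: deviations of same-numbered HS and noHS libraries correlated at -0.03 to 0.01. With a replicate block 455 probe sets were called at 1 h, 0 in either test of a difference, 1558 in cortex, 1146 for HS+NBQX against noHS and 31 for HS+NBQX against HS. Of the named probe sets 1384041_AT was called in all 16 alternatives, 1388654_AT in 15, and 1397667_AT and 1372348_AT in 11 each, with the fixed litter block, the within-litter fits, the fit without the litter of HS pups only and the methods' t-test losing the call, and no direction turned. The cause of these changes was not tested. Choosing 1 probe set per gene was not run, since no source used here gives genes. Dim probe sets limit the rest: 47.7% of all probe sets had both group means under 6 on the log2 scale.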
